A study of Mus musculus with 6 samples.

Results

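A set of 10 genes of dead cell and lipoprotein uptake were followed in dendritic cells (DC) sorted from mouse tumors. The members were picked by name from the 23224 genes of the deposited table: the bridging ligand Gas6, its receptors Axl and Mertk, the TIM receptors Timd4 and Havcr2, and the scavenger receptors Stab1, Cd36, Msr1, Mrc1 and Cd163. All 10 members were found, and all 10 were among the 13223 genes that passed the filter on low counts. The cells came from MC57-SIY tumors, a mouse fibrosarcoma line carrying the model T cell antigen SIY, grown for 7 days under the skin of C57BL/6 mice. There were 3 groups with 2 libraries each: CD103+ DC1 from Rag2-/- hosts (replicates 2 and 3), ISG+ DC from Rag2-/- hosts (replicates 2 and 3) and ISG+ DC from WT hosts (replicates 1 and 2). Rag2 is needed to recombine antigen receptor genes, and hosts without it have no mature T or B cells but keep DC, macrophages and NK cells. Tumors were pooled before sorting, and each group came from 2 independent experiments, per the submitters; the animals' age and the gate that defined ISG+ DC were not stated in the sources used. No CD103+ DC1 library from a WT host was analysed here.

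Dying cells expose the lipid phosphatidylserine, which phagocytes recognise either directly, through TIM family receptors, stabilins and CD36, or through bridging proteins such as GAS6 that link it to the TAM receptors AXL and MERTK. Scavenger receptors are a mixed group that take up modified lipoproteins, glycans and debris, and several of them also bind dying cells. In tumors these genes are known from macrophages and from DC, and AXL is known as an interferon-inducible receptor in DC.

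Libraries held between 6023510 and 15368616 estimated counts in total. CD103+ DC1 replicate 3 had the lowest total and stood apart. Its Spearman correlation over genes was 0.902 with its own replicate and 0.858 to 0.889 with the other 4 libraries, against 0.94 and 0.93 between replicates of the Rag2-/- and WT ISG+ DC groups. The labelled cell types were checked on marker lists. DC1 markers summed to 9770 and 5421 CPM (library-size normalised counts, scaled by TMM factors) in CD103+ DC1 and to 1007 to 1366 CPM in the 4 ISG+ DC libraries. Markers of CD11b+ conventional DC went the other way, with sums of 122 and 146 CPM in CD103+ DC1 and 2395 to 3170 CPM in ISG+ DC. Macrophage and monocyte markers summed to 457 and 567 CPM in CD103+ DC1, 2731 and 4241 CPM in Rag2-/- ISG+ DC and 7345 and 7811 CPM in WT ISG+ DC. Of that list, the tissue macrophage genes Vsig4 and Marco had no count in any ISG+ DC library. Rag2 itself had 39 and 11 counts in the CD103+ DC1 libraries, 40 and 2 in the ISG+ DC libraries labelled Rag2-/-, and 0 and 0 in those labelled WT. The sources used do not say which exons the allele removes, so the hosts are named by their labels only.

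**Figure D1:**
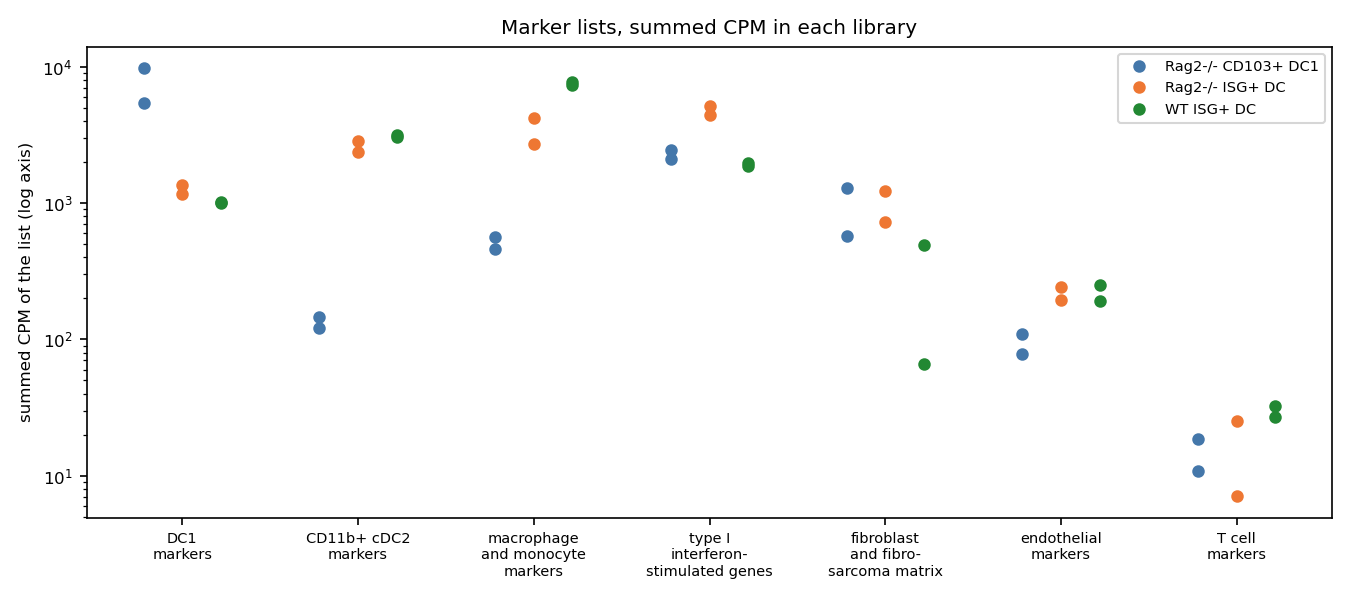
Summed CPM (log axis) of 7 marker lists in each of the 6 libraries, coloured by group; each point is 1 library. Macrophage and monocyte markers are lowest in CD103+ DC1 (457 and 567 CPM) and highest in WT ISG+ DC (7345 and 7811 CPM).

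Within Rag2-/- hosts, ISG+ DC and CD103+ DC1 differed in the levels of 3 uptake receptors. The mannose receptor Mrc1 and the TAM receptor Axl were higher in ISG+ DC, 6.54-fold and 6.37-fold, and the TIM receptor Havcr2 was 4.57-fold lower. Thus 2 of the 10 members were called higher, against 2.83% of all genes tested, and 1 of 10 was called lower, against 0.862%. The members were chosen with earlier results of these data known. Their shares, here and below, are therefore descriptions and not independent support. A call is a Benjamini-Hochberg adjusted p under 0.05 over all 13223 genes, from the quasi-likelihood test in edgeR. The median log2 fold change of the 10 members was 1.16, and that of all genes tested was -0.02. The other 7 members did not pass. With 1 library left out, the number of members called changed, and so did the number called over all genes. With 2 libraries a group, a difference that did not pass is not shown to be absent. Groups of 2 can also lie apart without a true difference. The share of all genes whose groups do not overlap was not counted, so non-overlap below is a description. In these bulk libraries, fewer cells of a type and less RNA per cell cannot be told apart. Macrophage and monocyte markers moved with the same comparison, with 10 of 11 tested called higher in ISG+ DC, and their part in these results was not tested.

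Between hosts, no member passed in ISG+ DC, where 0.287% of all genes were called higher and 0.265% lower in WT. At an unadjusted p under 0.05, 5 members were higher in WT and 0 lower, against 4.56% and 5.32% of all genes. DESeq2 called 3 of these 5 higher (Mertk, Havcr2 and Cd36). Of all genes it called 541 between hosts in either direction, against 73 by edgeR. The median log2 fold change of the members was 0.85, against -0.03 for all genes tested. Of the macrophage and monocyte markers, 0 of 11 tested passed by edgeR, 8 were higher in WT at an unadjusted p under 0.05 and 0 lower, DESeq2 called 7 higher, and the list's median was 1.39. Their part in the members' values was not tested.

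WT ISG+ DC set against Rag2-/- CD103+ DC1 differ in both population and host, which cannot be told apart in this contrast. Here 6 of 10 members were called higher in WT ISG+ DC (Axl, Mertk, Stab1, Cd36, Msr1 and Mrc1), against 5.52% of all genes. In the same comparison 10 of 11 macrophage and monocyte markers (median log2 fold change 4.02) and 6 of 6 CD11b+ DC markers were called higher, and their part in the members' values was not tested. No member was called lower by edgeR, against 3.62% of all genes. Timd4 was lower at an unadjusted p under 0.05 and was the 1 member called lower by DESeq2. Of all genes, DESeq2 called 2094 in either direction. The median log2 fold change was 1.92, against -0.03 for all genes tested. The 3 comparisons share libraries, so their values are given side by side and not as independent evidence.

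**Figure D2:**
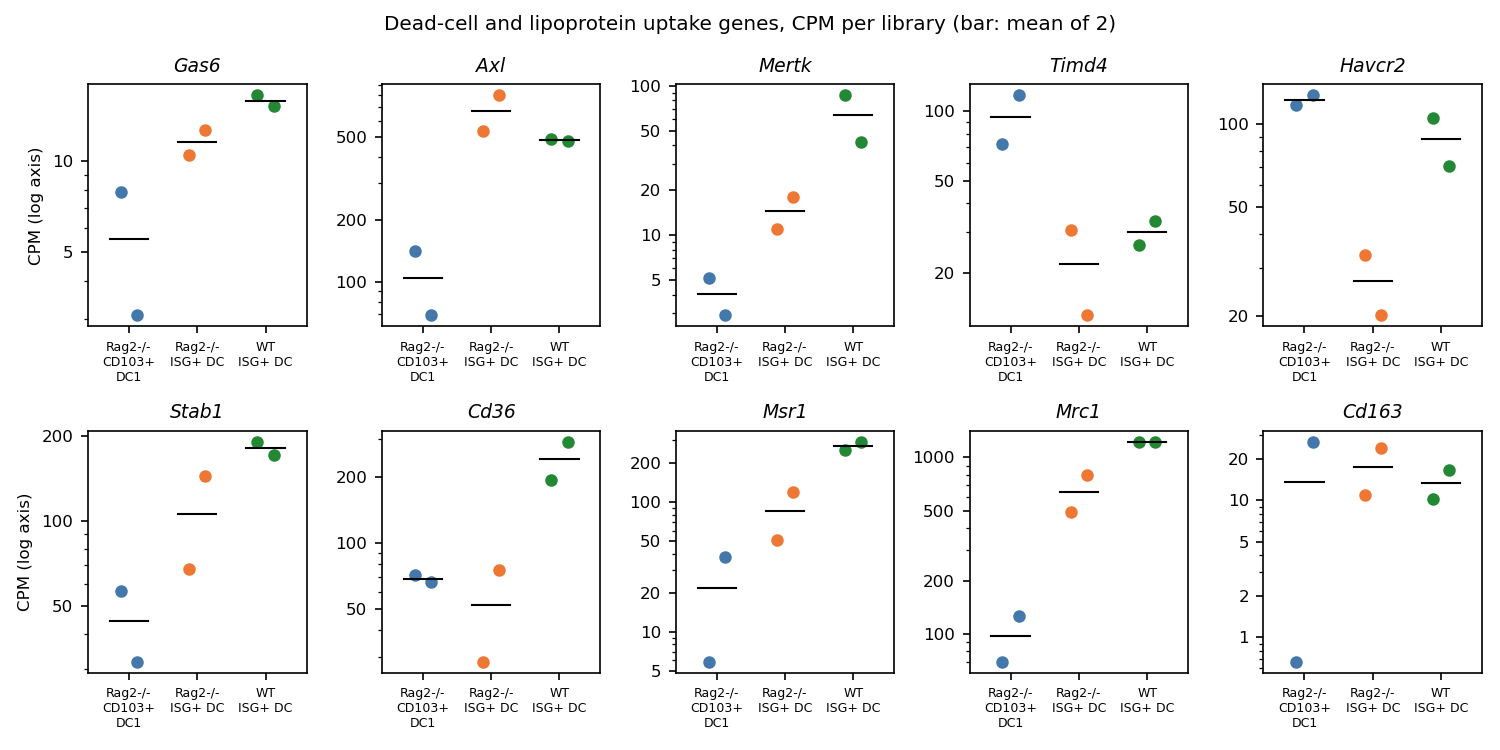
CPM of each of the 10 genes (log axis, with its own range in each panel) in the 6 libraries; points are libraries and bars are means of 2. Mrc1, Axl, Mertk, Gas6, Stab1 and Msr1 are lower in CD103+ DC1 than in both ISG+ DC groups, and Timd4 and Havcr2 are higher. Havcr2 is lowest in Rag2-/- ISG+ DC, and Cd163 differs most between the 2 CD103+ DC1 libraries (0.665 and 26.7 CPM).

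The 3 called members of the first comparison are shown with the 250 bases before their start site, from RefSeq on GRCm38.p6, a build other than the mm9 named in the submitters' processing notes. They were chosen because 2 of these genes were higher and 1 was lower in ISG+ DC. Capitals mark the letters GAGGAA, the purine-rich core bound by PU.1 and other ETS factors, or its reverse complement TTCCTC. The Mrc1 window (chr2:14229164-14229413, plus strand) holds 3 such matches, and those of Axl (chr7:25788734-25788983, minus strand) and Havcr2 (chr11:46454681-46454930, plus strand) hold 1 each.
Mrc1: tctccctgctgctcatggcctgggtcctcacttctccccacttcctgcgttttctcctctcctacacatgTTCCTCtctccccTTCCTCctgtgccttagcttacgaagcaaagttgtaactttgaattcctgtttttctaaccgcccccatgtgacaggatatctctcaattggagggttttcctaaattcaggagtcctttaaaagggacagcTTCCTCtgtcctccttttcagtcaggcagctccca
Axl: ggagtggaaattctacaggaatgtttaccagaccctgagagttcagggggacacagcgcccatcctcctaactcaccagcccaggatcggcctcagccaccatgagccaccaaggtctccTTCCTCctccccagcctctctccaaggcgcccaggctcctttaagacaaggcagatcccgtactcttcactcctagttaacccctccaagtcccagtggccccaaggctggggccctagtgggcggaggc
Havcr2: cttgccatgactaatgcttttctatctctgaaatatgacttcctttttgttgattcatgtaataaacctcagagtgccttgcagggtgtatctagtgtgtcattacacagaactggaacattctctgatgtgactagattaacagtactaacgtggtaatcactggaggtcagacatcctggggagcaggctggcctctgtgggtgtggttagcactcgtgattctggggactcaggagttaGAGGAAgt
Windows were found for 9 of the 10 members, all but Msr1. Of these 9, 4 held GAGGAA on either strand (Stab1 is the other), as did 23.3% of all 32851 windows of the same length. None of the 9 held GAAANNGAAA, the core of an interferon response element, which 2.98% of all windows held. The genes called in opposite directions both carry the purine-rich letters, and a match is a description of the sequence, not a binding site.

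Axl encodes a TAM receptor that binds phosphatidylserine through GAS6. It had 141 and 68.8 CPM in CD103+ DC1 (replicates 2 and 3), 540 and 798 CPM in the Rag2-/- ISG+ DC libraries and 493 and 482 CPM in those of WT ISG+ DC, with replicates in ascending number here and below. All 4 ISG+ DC libraries lay above both CD103+ DC1 libraries, and the WT libraries lay below the Rag2-/- ISG+ DC libraries. In Rag2-/- hosts the log2 fold change was 2.67 ± 0.36 (SE, edgeR adjusted p = 0.00231), and 3.27 without CD103+ DC1 replicate 2. Between hosts it was -0.46 ± 0.34 (edgeR adjusted p = 0.752). WT ISG+ DC against CD103+ DC1 gave 2.21 ± 0.35 (edgeR adjusted p = 0.00326), or 2.81 without CD103+ DC1 replicate 2.

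Mertk, the TAM receptor best known from macrophages, followed another order, with its highest level in WT ISG+ DC. It had 5.19 and 2.91 CPM in CD103+ DC1, 11.02 and 18.01 CPM in Rag2-/- ISG+ DC and 86.2 and 42.1 CPM in WT ISG+ DC. No group overlapped another, although the first 2 groups rest on few reads (17 to 247 counts). The step from CD103+ DC1 to ISG+ DC within Rag2-/- hosts was 1.82 ± 0.60 on the log2 scale and did not pass (edgeR adjusted p = 0.164), except without CD103+ DC1 replicate 2 (2.31, edgeR adjusted p = 0.0322); with any of the other 3 libraries left out it was 1.42 to 2.13 and did not pass. The step between hosts was 2.14 ± 0.60 and did not pass either (edgeR adjusted p = 0.164). Across both steps the difference passed, at 3.96 ± 0.65 (edgeR adjusted p = 0.00381), or 3.36 without WT ISG+ DC replicate 1.

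Gas6, the ligand, was low in all libraries. Its levels were 7.91 and 3.08 CPM in CD103+ DC1, 10.4 and 12.7 CPM in Rag2-/- ISG+ DC and 16.4 and 15.2 CPM in WT ISG+ DC. The libraries kept the order CD103+ DC1, Rag2-/- ISG+ DC, WT ISG+ DC without overlap, but no comparison passed (edgeR adjusted p = 0.651, 0.966 and 0.356 in the order given above). The third TAM receptor, Tyro3, had 0.514 to 5.10 CPM in the Rag2-/- libraries and 0 in both WT libraries, and the second ligand, Pros1, had 4.19 to 43.8 CPM with overlapping groups. Neither passed in any comparison.

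The TIM receptors were the members with their highest levels in CD103+ DC1. Havcr2, which encodes TIM-3, had 118 and 128 CPM in CD103+ DC1, 33.5 and 20.1 CPM in Rag2-/- ISG+ DC and 106 and 70.5 CPM in WT ISG+ DC. ISG+ DC of Rag2-/- hosts were therefore the low group, and both of the other groups lay above it. The difference from CD103+ DC1 within Rag2-/- hosts was -2.19 ± 0.39 on the log2 scale (edgeR adjusted p = 0.011); without ISG+ DC replicate 3 it was -1.87 and did not pass (edgeR adjusted p = 0.109). WT ISG+ DC were 3.29-fold above Rag2-/- ISG+ DC, which did not pass (edgeR adjusted p = 0.0849). They did not differ detectably from CD103+ DC1 (log2 fold change -0.47 ± 0.37, edgeR adjusted p = 0.519).

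Timd4, which encodes the phosphatidylserine receptor TIM-4, had 72.0 and 117 CPM in CD103+ DC1, 30.8 and 13.2 CPM in Rag2-/- ISG+ DC and 26.5 and 33.4 CPM in WT ISG+ DC. CD103+ DC1 were above all 4 ISG+ DC libraries, and the hosts overlapped. Within Rag2-/- hosts the difference was -2.10 ± 0.51 and missed the threshold narrowly (edgeR adjusted p = 0.0511). It passed without CD103+ DC1 replicate 2 (-2.41, edgeR adjusted p = 0.00209) and without ISG+ DC replicate 2 (-2.83, edgeR adjusted p = 0.0382). It did not pass without CD103+ DC1 replicate 3 (-1.69, edgeR adjusted p = 0.0616) or without ISG+ DC replicate 3 (-1.61, edgeR adjusted p = 0.387). WT ISG+ DC against CD103+ DC1 gave -1.65 ± 0.50 (edgeR adjusted p = 0.0716), and -1.97 without CD103+ DC1 replicate 2, which passed (edgeR adjusted p = 0.00756); with any of the other 3 libraries left out it did not pass, at -1.25 to -1.83. The host difference was 0.44, or -0.04 without Rag2-/- ISG+ DC replicate 3.

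Mrc1, which encodes the mannose receptor CD206, is a lectin for glycoproteins and collagen fragments. It had 70.0 and 127 CPM in CD103+ DC1, 488 and 795 CPM in Rag2-/- ISG+ DC and 1220.2 and 1223 CPM in WT ISG+ DC. The 3 groups did not overlap, and the 2 WT libraries lay within a few CPM of each other. In Rag2-/- hosts the log2 fold change was 2.71 ± 0.34 (edgeR adjusted p = 0.00173), and it kept its call in all 9 alternatives run, between 2.32 and 3.21. WT ISG+ DC were 1.90-fold above Rag2-/- ISG+ DC, which did not pass (edgeR adjusted p = 0.317), and 3.64 ± 0.36 on the log2 scale above CD103+ DC1 (edgeR adjusted p = 0.000234).

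Msr1, the class A receptor for modified lipoproteins, had 5.85 and 37.3 CPM in CD103+ DC1, 50.9 and 120 CPM in Rag2-/- ISG+ DC and 251 and 291 CPM in WT ISG+ DC. The groups did not overlap, but the CD103+ DC1 libraries lay far apart. Within Rag2-/- hosts the log2 fold change was 2.02 ± 0.70 and did not pass (edgeR adjusted p = 0.181). With either CD103+ DC1 library left out it passed, at 1.19 without replicate 2 (edgeR adjusted p = 0.0494) and 3.89 without replicate 3 (edgeR adjusted p = 2.49e-07). Without ISG+ DC replicate 2 it was 2.50 (edgeR adjusted p = 0.0764) and without ISG+ DC replicate 3 it was 1.26 (edgeR adjusted p = 0.732). Between hosts it was 1.66 ± 0.68 (edgeR adjusted p = 0.425). WT ISG+ DC were 3.68 ± 0.74 above CD103+ DC1 (edgeR adjusted p = 0.0112), with 2.85 and 5.54 without CD103+ DC1 replicates 2 and 3.

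Cd36, a class B scavenger receptor for oxidised lipoproteins and fatty acids, had its highest values in the WT libraries. It had 71.2 and 66.3 CPM in CD103+ DC1, 28.6 and 75.5 CPM in Rag2-/- ISG+ DC and 194 and 291 CPM in WT ISG+ DC. The 2 Rag2-/- groups overlapped, with a log2 fold change of -0.40 ± 0.43 that was 0.14 without ISG+ DC replicate 2. WT ISG+ DC were 4.66-fold above Rag2-/- ISG+ DC, just outside the threshold (2.22 ± 0.45, edgeR adjusted p = 0.0555). That difference passed without Rag2-/- ISG+ DC replicate 3 (3.08, edgeR adjusted p = 0.0131) and without WT ISG+ DC replicate 1 (2.48, edgeR adjusted p = 0.0144). It did not pass without Rag2-/- ISG+ DC replicate 2 (1.68, edgeR adjusted p = 0.247) or without WT ISG+ DC replicate 2 (1.90, edgeR adjusted p = 0.145). Against CD103+ DC1 it was 1.82 ± 0.44 (edgeR adjusted p = 0.0281), and it did not pass without WT ISG+ DC replicate 2 (1.49, edgeR adjusted p = 0.109).

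Stab1, which encodes stabilin-1, a phosphatidylserine and scavenger receptor of macrophages and sinusoidal endothelium, had 56.9 and 31.9 CPM in CD103+ DC1, 67.9 and 144 CPM in Rag2-/- ISG+ DC and 191 and 172 CPM in WT ISG+ DC. The groups did not overlap. Within Rag2-/- hosts the log2 fold change of 1.25 ± 0.42 did not pass (edgeR adjusted p = 0.166), and without CD103+ DC1 replicate 2 it was 1.73 and passed (edgeR adjusted p = 0.00554). It was 0.92 without CD103+ DC1 replicate 3 (edgeR adjusted p = 0.196), 1.70 without ISG+ DC replicate 2 (edgeR adjusted p = 0.0723) and 0.61 without ISG+ DC replicate 3 (edgeR adjusted p = 1). The host difference was 0.77 ± 0.41 (edgeR adjusted p = 0.613). WT ISG+ DC were 2.03 ± 0.43 above CD103+ DC1 (edgeR adjusted p = 0.0143). Endothelial markers summed to 78.4 and 109 CPM in CD103+ DC1 and 193 to 249 CPM in ISG+ DC; 1 of 6 tested, Pecam1, was called, in this last comparison, and the list's part in the Stab1 values was not tested.

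Cd163, the receptor for haemoglobin bound to haptoglobin, did not pass in any comparison over all libraries. It had 0.665 and 26.7 CPM in CD103+ DC1 (10 and 156 counts), 10.9 and 24.1 CPM in Rag2-/- ISG+ DC and 10.2 and 16.7 CPM in WT ISG+ DC. The CD103+ DC1 libraries lay on either side of all 4 ISG+ DC libraries. The log2 fold change within Rag2-/- hosts was 0.37 ± 1.21 (edgeR adjusted p = 0.94), and it turned to -0.62 without CD103+ DC1 replicate 2 and passed at 4.71 without replicate 3 (edgeR adjusted p = 0.0296). It was also negative, at -0.32, when ISG+ DC replicate 3 was left out. WT ISG+ DC against CD103+ DC1 gave -0.01, 4.33 without CD103+ DC1 replicate 3 (edgeR adjusted p = 0.0272) and 0.30 without WT ISG+ DC replicate 1.

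**Figure D3:**
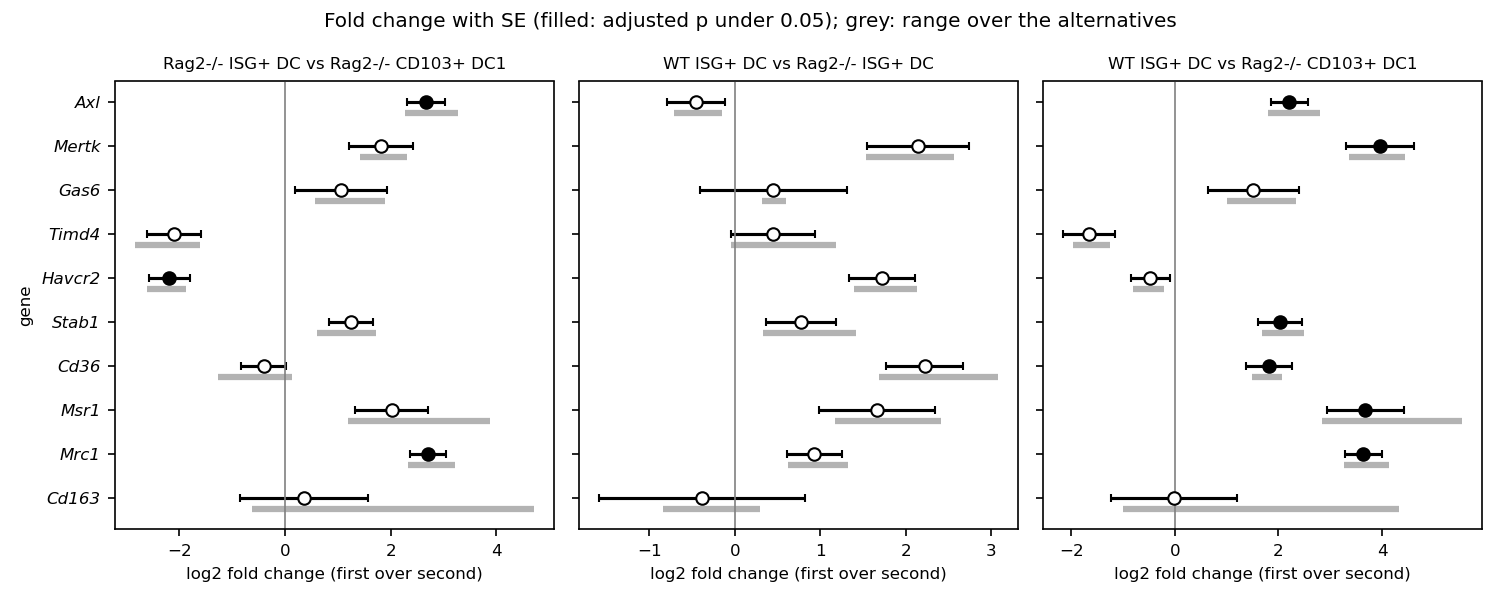
Log2 fold change of each gene in the 3 comparisons, as points with SE bars, filled where the adjusted p is under 0.05; grey bars span the values under the alternatives. Mrc1 and Axl are filled on the right and Havcr2 on the left in the first panel, none is filled in the second, and 6 are filled on the right in the third.

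To set the genes against each other, CPM were divided by exon length in kb (GENCODE M21, so approximate for this mm9-based table). Expressed per length, the order of the receptors differed between the populations. In CD103+ DC1 the TIM receptors led, with Havcr2 at 45.1 ± 2.50 (SD) and Timd4 at 43.4 ± 14.5 CPM per kb, whose libraries overlapped. Axl (20.8 ± 10.1), Cd36 (19.2 ± 0.976) and Mrc1 (15.4 ± 6.28) formed an overlapping second tier, and Mertk was last at 0.934 ± 0.371 CPM per kb. In Rag2-/- ISG+ DC, Axl (133 ± 36.3) and Mrc1 (101 ± 34.0) overlapped at the top. They lay above a tier of Cd36, Msr1, Stab1, Timd4 and Havcr2 at 9.86 to 14.5 CPM per kb, within which all neighbours overlapped. In WT ISG+ DC, Mrc1 led at 192 ± 0.283 CPM per kb, followed by Axl at 96.8 ± 1.49, Cd36 at 67.5 ± 19.0 and Msr1 at 42.7 ± 4.51, with no overlap between these neighbours. Havcr2 came next at 32.4 ± 9.17 and did not overlap Msr1 (38.9 and 25.9 against 39.5 and 45.9 CPM per kb), though the gap was narrow. Gas6 and Cd163 were at or near the bottom in all 3 groups.

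**Figure D4:**
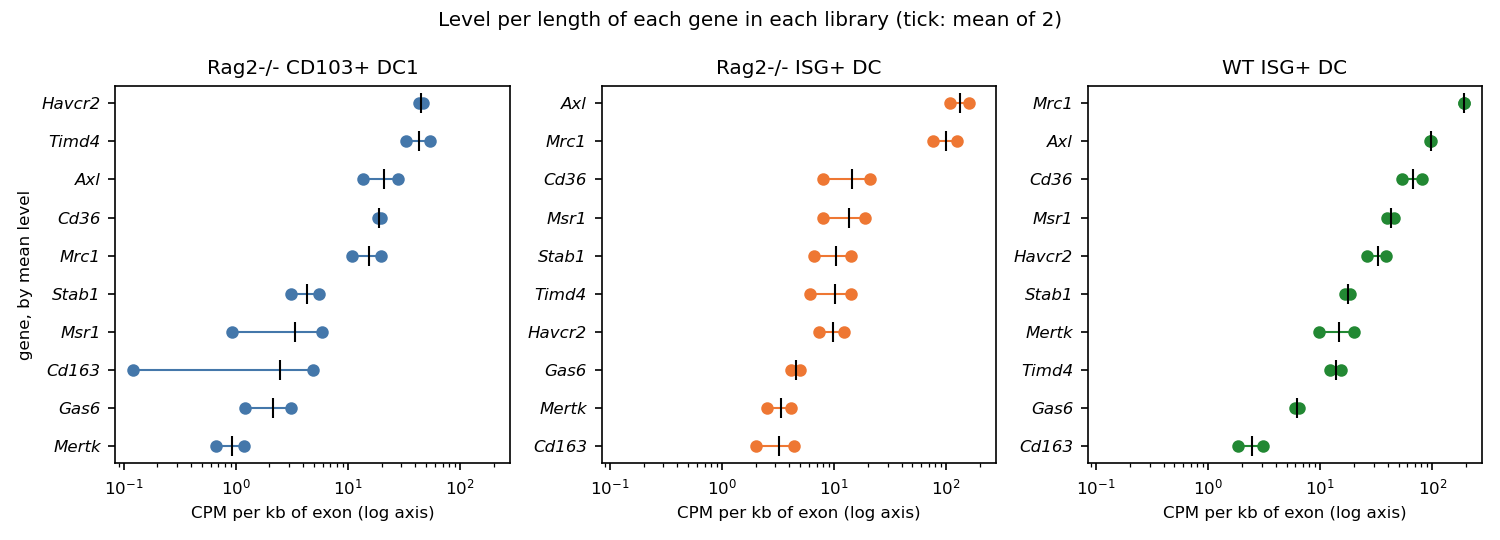
CPM per kb of exon (log axis) in each library, with the genes of each group ordered by mean level; points are libraries, lines join the 2 libraries and ticks are means. Havcr2 and Timd4 lead in CD103+ DC1, Axl and Mrc1 in Rag2-/- ISG+ DC, and Mrc1 in WT ISG+ DC.

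Of 19 other genes of dead cell recognition, 15 were tested. Within Rag2-/- hosts 7 were called higher in ISG+ DC, against 2.83% of all genes, and 8 did not pass. None was called lower, against 0.862% (1 was lower at an unadjusted p under 0.05, and DESeq2 called 1 lower). With the smallest p among the 7 called higher was Thbs1, the bridging protein thrombospondin-1 (log2 fold change 3.36, edgeR adjusted p = 0.000982). It had 46.8 and 26.4 CPM in CD103+ DC1 and 283 and 471 CPM in Rag2-/- ISG+ DC. Lrp1, a lipoprotein and calreticulin receptor, went from 241 and 157 CPM to 846 and 1432 CPM (2.52, edgeR adjusted p = 0.00162). The lipid receptors Cd300lf (2.43) and Cd300lb (2.82) were higher, as were the opsonin chains C1qb (2.70), C1qc (3.07) and C1qa (2.17). C1qa did not pass without ISG+ DC replicate 3 (1.44), and Cd300lb and C1qa did not pass when the 2 groups were fitted alone. Cd300lb was at 2.21 and 3.75, and C1qc at 4.28 and 2.49, without CD103+ DC1 replicates 2 and 3, and C1qb was at 3.51 without replicate 2. C1qa, C1qb and C1qc also stand on the macrophage marker list. Between hosts Thbs1 alone of the 15 passed, at 1631 and 2242 CPM in WT (2.36, edgeR adjusted p = 0.0196), and it did not pass without Rag2-/- ISG+ DC replicate 2 (2.04, edgeR adjusted p = 0.0919). In WT ISG+ DC against CD103+ DC1, 9 of 15 were called higher, against 5.52% of all genes, and 0 lower, against 3.62%. At an unadjusted p under 0.05, 1 was lower, and DESeq2 called 0 lower. The smallest p-values were those of Thbs1 (5.72) and Lrp1 (3.69). Itgav (1.36) and Itgb5 (1.58) were among the 9 and lost their calls without WT ISG+ DC replicate 1 (1.13 and 1.42). The bridging protein Mfge8 had 10.8 to 56.7 CPM over all libraries and passed nowhere.

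Of 14 other scavenger and lipoprotein receptors, 10 were tested. Within Rag2-/- hosts 1 was called higher in ISG+ DC, against 2.83% of all genes. It was Cd68, an endolysosomal scavenger glycoprotein (1.71, edgeR adjusted p = 0.0109), which did not pass without ISG+ DC replicate 3 (1.38). In WT ISG+ DC against CD103+ DC1, 3 were called higher, against 5.52% of all genes. They were Cd68 (2.23), Olr1 (4.73), the receptor LOX-1, and Cxcl16 (2.66), a chemokine that also binds oxidised lipoprotein. Without CD103+ DC1 replicate 2, Cxcl16 was at 3.62, and without replicate 3, Olr1 was at 5.33. None of the 10 was called lower by edgeR; at an unadjusted p under 0.05, 2 were lower in WT ISG+ DC than in Rag2-/- ISG+ DC and 1 was lower than in CD103+ DC1, and DESeq2 called 1 lower in each. Scarb1 (38.2 to 59.6 CPM), a receptor for high-density lipoprotein, and Colec12 (108 to 142 CPM) stayed in a narrow range over all 6 libraries. Stab2 and Megf10 had counts in 1 library at most, and Cd163l1 likewise.

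Of 9 genes of cholesterol handling after uptake, 2 were called higher in WT between hosts, against 0.287% of all genes, and 7 did not pass. At an unadjusted p under 0.05, 6 were higher and 0 lower, against 4.56% and 5.32% of all genes. DESeq2 called 4 higher and 0 lower, and 541 of all genes in either direction. Of 11 macrophage and monocyte markers tested, 0 passed between hosts by edgeR. At an unadjusted p under 0.05, 8 were higher and 0 lower, and DESeq2 called 7 higher. Their part in these values was not tested. Abca1, the exporter of cellular cholesterol, had 21.01 and 12.2 CPM in CD103+ DC1, 50.04 and 116 CPM in Rag2-/- ISG+ DC and 1053 and 1268 CPM in WT ISG+ DC. Both WT libraries lay far above the other 4. The host difference was 3.81 on the log2 scale (edgeR adjusted p = 0.00829), or 4.53 if Rag2-/- ISG+ DC replicate 3 is left out, and the population difference within Rag2-/- hosts was 2.30 (edgeR adjusted p = 0.0109), or 1.58 without that replicate; the latter did not pass when the 2 groups were fitted alone. Apoe, the lipid carrier apolipoprotein E, had 140 and 391 CPM, 203 and 281 CPM, and 2032 and 1656 CPM in the same order of groups. It rose in WT ISG+ DC by 2.93 over Rag2-/- ISG+ DC (edgeR adjusted p = 0.0194), a call lost without Rag2-/- ISG+ DC replicate 2 (2.71, edgeR adjusted p = 0.0733). Abca1 and Apoe were the 2 called between hosts, both higher in WT, and the list median was 1.72. Abcg1, a second exporter, was called in WT ISG+ DC against CD103+ DC1 (2.67), where it was 3.69 without CD103+ DC1 replicate 2; Abca1 was at 6.11 there and Apoe at 2.80, or 3.73 without CD103+ DC1 replicate 3. The sterol sensors Nr1h3 (0.399 to 54.9 CPM, highest in the WT libraries) and Nr1h2 did not pass.

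**Figure D5:**
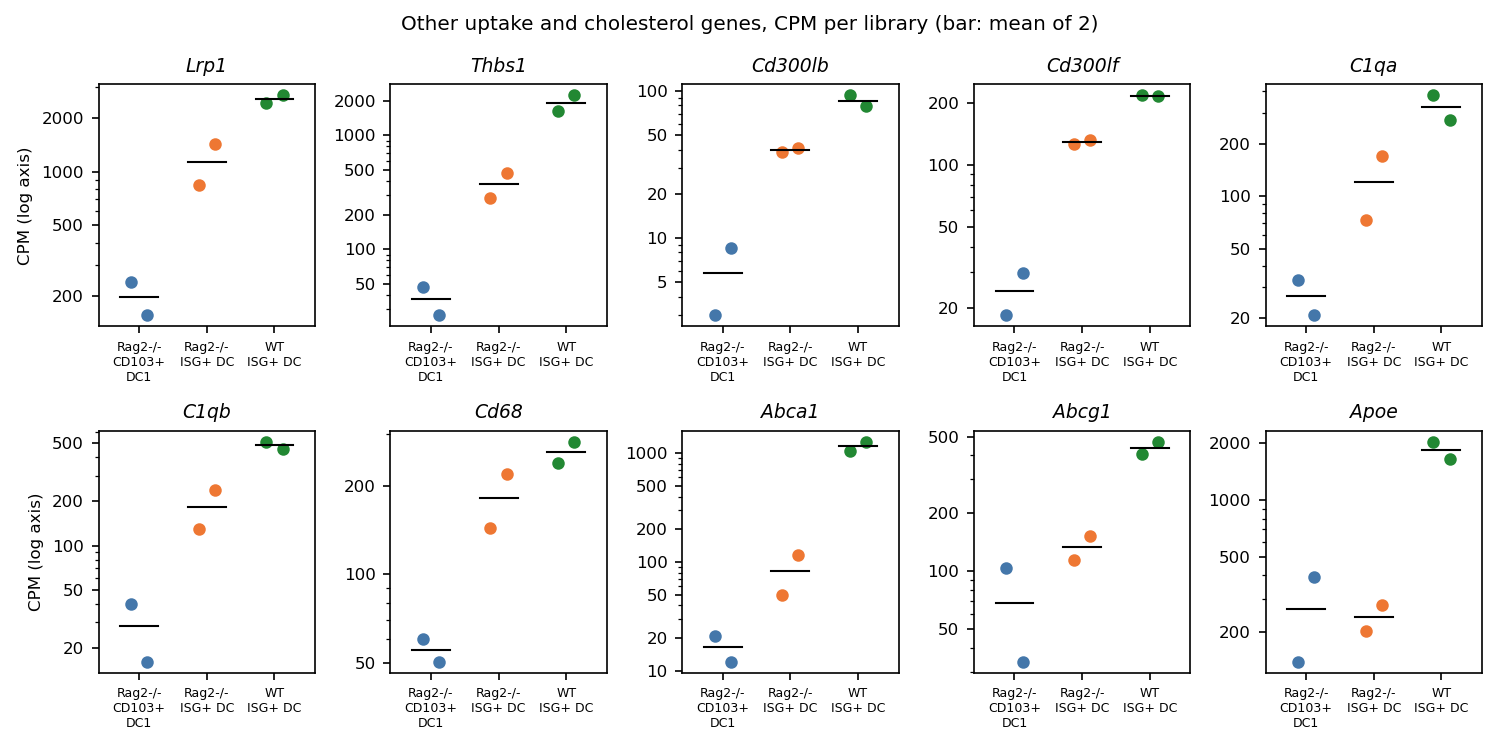
CPM (log axis, with its own range in each panel) of 10 further uptake and cholesterol genes in the 6 libraries; points are libraries and bars are means of 2. Abca1 and Apoe are highest in the WT libraries (1053 and 1268 CPM, and 2032 and 1656 CPM).

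Of 17 engulfment and digestion genes, 0 passed by edgeR within Rag2-/- hosts. There 6 were higher and 0 lower at an unadjusted p under 0.05, against 8.8% and 6.11% of all genes. DESeq2 called 4 higher and 0 lower, and 1078 of all genes in either direction. Between hosts 0 passed by edgeR. At an unadjusted p under 0.05, 4 were higher and 3 lower, against 4.56% and 5.32% of all genes. DESeq2 called 3 higher and 2 lower, and 541 of all genes in either direction. In WT ISG+ DC against CD103+ DC1, 5 were called higher, against 5.52% of all genes, and 0 lower, against 3.62%. They were Lipa (2.31), Dock1 (1.85), Elmo2 (1.61), Crk (1.63) and Adam17 (1.61). Lipa encodes the lysosomal lipase that frees cholesterol from lipoproteins, Dock1 a Rac activator of engulfment, and Elmo2 its partner. Crk encodes an adaptor and Adam17 a protease that sheds MERTK. Without CD103+ DC1 replicate 2, Lipa was at 3.07 and Elmo2 at 2.42. Elmo2 did not pass without WT ISG+ DC replicate 1 (1.36), nor Crk without WT ISG+ DC replicate 2 (1.49). Among 7 genes of find-me and do-not-eat-me signals, Sirpa, the receptor for CD47 and a marker of CD11b+ DC, was the 1 called, higher in ISG+ DC of both hosts than in CD103+ DC1 (4.75 and 5.37). Without CD103+ DC1 replicate 2 these were 6.61 and 7.22, and without replicate 3 they were 4.02 and 4.63. Cd47 itself had 58.5 to 181 CPM and did not pass.

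For the 4 members with the highest mean level, the genes with the most similar pattern over the 6 libraries were found by Pearson r of log2(CPM + 1), as a description. Mrc1 was most like Clptm1 and Lilrb4 (r = 0.996 for both), Axl most like Sh3kbp1 and Midn (0.997 for both), Msr1 most like Smox (0.994) and Cd93 (0.993), and Cd36 most like Ldha (0.992) and Btg2 (0.988). Over 0.95 were 216 of 8111 genes for Mrc1, 212 for Axl, 54 for Msr1 and 18 for Cd36. The 6 points share 3 groups of 2.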

How the data were processed

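RNA of sorted tumor DC was sequenced from 6 libraries in 3 groups of 2, prepared with a SMARTer stranded pico-input kit per the labels' protocols. The values the authors deposited are estimated counts from RSEM, listed by gene symbol without normalization, of which 16.1% are not whole. Bowtie 1.2.3, RSEM 1.3.1 and mm9 are named per the submitters' processing notes. The annotation, strand setting and filters were not stated in the sources used. Axl and Havcr2 had non-whole counts in all 6 libraries, Mrc1 and Cd163 in 3 each, Stab1 in 2 and Cd36 in 1. For these genes RSEM therefore shared some reads with other features.

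Counts were rounded, then fitted with edgeR 4.0.16 under R 4.3.3 (filterByExpr, TMM, glmQLFit and glmQLFTest over all 6 libraries), which kept 13223 of 23224 genes. Tests were two-sided across all genes, with a Benjamini-Hochberg threshold of 0.05. The SE was taken from the F statistic. Each gene had 3 residual degrees of freedom, to which shrinkage contributed 7.34; the common BCV (coefficient of variation between replicates) came to 0.703. Each p-value tests a group difference against the spread between these libraries, which the fit partly shared between genes. Tumors were pooled before sorting, so this is not the spread between animals. DESeq2 1.42.0, another scaling, no filter, fewer libraries and a replicate block were tried. The procedure was also run on counts simulated from this fit's own means and spread, with changes placed only in genes of at least 10 CPM. Such counts meet the model by construction, so that run cannot show how well the model suits these data. Replicates differed far beyond counting noise (chi-square per degree of freedom 41.1 to 93).

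The members, 5 lists of related genes and 10 marker lists were chosen with earlier results of these data known. The text names all members, the related genes that passed (at most 6 per list and comparison, smallest p first) with Pros1, Tyro3 and Mfge8, and the 2 genes most like each of the 4 members with the highest mean, among genes of at least 10 CPM; any other gene was chosen after its values were seen.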

Additional observations from a re-analysis of the deposited data

How the results depend on the processing

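The log2 fold changes of Mrc1, Axl and Havcr2 within Rag2-/- hosts kept their direction in all 9 alternatives. Counts depended more on the processing. Within Rag2-/- hosts, 488 genes were called, against 1087 without the filter on low counts, 1078 by DESeq2, 297 with only the 2 groups compared, and 278 (without ISG+ DC replicate 3) to 2068 (without CD103+ DC1 replicate 2) with 1 library left out. Members called higher there were 2, and 4 without the filter; with 1 library left out they were 2 to 5. Members called lower were 1, and 2 with RLE scaling, without the filter, by DESeq2 and with the replicate block (Timd4 joined Havcr2); with 1 library left out they were 0 to 2. Between hosts 73 genes were called, against 555 without the filter, 541 by DESeq2, 444 with only the 2 groups compared, and 27 (without Rag2-/- ISG+ DC replicate 2) to 198 (without WT ISG+ DC replicate 1) with 1 library left out. Members called higher between hosts were 0, but 5 without the filter, 3 by DESeq2, 5 with only the 2 groups compared, and 0 to 1 with 1 library left out. For WT ISG+ DC against CD103+ DC1, 1209 genes were called, against 1890 without the filter, 2094 by DESeq2, 683 with only the 2 groups compared and 837 (without WT ISG+ DC replicate 2) to 2754 (without CD103+ DC1 replicate 2) with 1 library left out. There 1 member, Timd4, was called lower without the filter and by DESeq2, and 0 to 1 with 1 library left out. Among the 10 members, directions turned for 3, none of them called in that comparison over all libraries. With 1 library left out, log2 fold changes within Rag2-/- hosts ran from -0.62 to 4.71 for Cd163 and from -1.26 to 0.14 for Cd36. Between hosts they ran from -0.84 to 0.30 for Cd163 and from -0.043 to 1.18 for Timd4, and in WT ISG+ DC against CD103+ DC1 from -1.004 to 4.33 for Cd163. The cause of these changes was not tested.

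The 2 Rag2-/- groups share replicate numbers, and the deviations of their libraries numbered 2 correlated at -0.0024. With 2 libraries a group, the deviations of replicate 3 mirror those of replicate 2 and give no further check. Whether the replicate numbers mark a pairing, such as a shared experiment, was therefore not settled. The replicate block was set by number alone over all 6 libraries. WT ISG+ DC replicate 2 therefore shared a block with the Rag2-/- libraries numbered 2. The block also left fewer residual degrees of freedom per gene than the main fit. With the replicate block 715 genes were called within Rag2-/- hosts, and Msr1 (2.39) and Timd4 (-2.18) were called. The lowest counts of a member in a library were 10 for Cd163, in CD103+ DC1 replicate 2, and 17 for Mertk and 18 for Gas6, both in CD103+ DC1 replicate 3, so counting error is largest there.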

Other observations

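Type I interferon-stimulated genes did not follow the order of most members. Of 10 listed, 4 were called higher in ISG+ DC than in CD103+ DC1 within Rag2-/- hosts, against 2.83% of all genes, and 0 lower. Between hosts 3 were called lower in WT (Ifit2, Ifit3 and Mx1), against 0.265% of all genes, and 0 higher. At an unadjusted p under 0.05, 10 of 10 were lower in WT and 0 higher, against 5.32% and 4.56% of all genes. DESeq2 called 7 lower and 0 higher, and 541 of all genes in either direction. Their summed level was 5205 and 4454 CPM in Rag2-/- ISG+ DC, 1872 and 1962 CPM in WT ISG+ DC and 2440 and 2102 CPM in CD103+ DC1. Axl was the 1 member besides Cd163 with a lower mean in WT than in Rag2-/- ISG+ DC, a difference that did not pass. The other 8 members had higher means in WT.

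Matrix genes of fibroblasts and fibrosarcoma summed to 1301 and 571 CPM in CD103+ DC1, 1227 and 725 CPM in Rag2-/- ISG+ DC and 493 and 66.3 CPM in WT ISG+ DC. Mrc2 encodes a collagen receptor related to Mrc1 and known from fibroblasts. It had 130 and 68.0 CPM, 90.6 and 41.4 CPM, and 19.5 and 1.47 CPM in the same order. Its group means ran in the reverse order to those of Mrc1, but the 2 Rag2-/- groups overlapped. Mrc2 did not pass in any comparison, and came nearest in WT ISG+ DC against CD103+ DC1 (log2 fold change -3.24, edgeR adjusted p = 0.0529). T cell markers summed to 7.05 to 32.2 CPM, B cell markers to 0 to 12.7 CPM and NK cell markers to 0.104 to 17.4 CPM over the 6 libraries. Neutrophil markers summed to 12.5 to 38.5 CPM in Rag2-/- libraries and to 139 and 149 CPM in WT libraries, where Csf3r made up most of the sum. S100a8 had no count in any library, S100a9 had 46 counts in WT ISG+ DC replicate 1 and 0 elsewhere, and Mpo had 2 and 14 counts in the WT libraries and 0 elsewhere.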
